A study of Mus musculus with 12 samples.

Results

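The comparison of EPZ-5676, also called pinometostat, with its DMSO vehicle asked what inhibition of the methyltransferase DOT1L left of H3K79me2 in cultured mouse CD8 T cells. It used 4 of the 12 chromatin immunoprecipitation and sequencing (ChIP-seq) samples of the series, 2 immunoprecipitates of DMSO-treated cells and 2 of EPZ-5676-treated cells, through 1 deposited list of broad peaks per treatment. All 12578 peaks of the DMSO list were described. Each was given the share of its bases inside peaks of the EPZ list (4443 peaks), the number of EPZ peaks within it, and the offset of their midpoint from its own. The 3 lists of the series held 17076 peaks.

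CD8 T cells came from male mice of the strain CreERT2;DOT1L-flox;OT-I with the genotype wt;wt;het, in the order of the strain name. Read in that order, both groups were wild type at the CreERT2 and DOT1L-flox loci and heterozygous for OT-I, a T cell receptor transgene. Both groups were stimulated through CD3 and CD28 by antibodies and expanded until day 8. At intervals of 2 days they received either DMSO at 0.1% or EPZ-5676, whose dose is labelled 10 mM, a unit that is doubtful for a cell culture. Each group had 2 biological replicates, and the labels do not say whether cells of several mice were pooled. Every sample was spiked with chromatin of yeast whose histone H3 carried an HA tag, as an external reference. The deposited lists do not separate the replicates and carry no read depth, so no value below has a spread between replicates and no p-value is given. Intervals are exact (Clopper-Pearson) 95% intervals over peaks or genes and cover counting only. Neither the depth nor the use of the yeast reads in the lists is given in the sources used here, and their part in the differences below was not tested. Less mark on every nucleosome and marked nucleosomes in fewer cells cannot be told apart in such bulk samples.

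DOT1L is the enzyme that methylates lysine 79 of histone H3, a residue on the surface of the nucleosome core. It acts with partners such as the MLLT proteins that also bind the transcription elongation machinery, and H3K79me2 lies over the transcribed 5′ part of active genes, beginning just past the start and tapering into the gene. EPZ-5676 occupies the pocket of DOT1L for its methyl donor, S-adenosylmethionine. With new methylation blocked, the mark is diluted as cells divide and old nucleosomes are replaced. In T cells DOT1L has been linked to lineage identity and to the balance of naive, memory-like and effector programmes.

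The label of the cells was checked against lists of marker genes. All 17 genes of the T cell receptor and CD8 identity list carried a DMSO peak, among them Cd8a and Cd8b1. Of the 12 CD4 helper and regulatory T cell genes 4 carried one (Gata3, Bcl6, Ikzf2 and Cxcr5), and Cd4, Zbtb7b and Foxp3 did not. Of the markers of other cells, 0 of 15 myeloid, 0 of 15 non-hematopoietic, 1 of 13 B cell and 5 of 12 NK cell genes had a DMSO peak. The B cell gene was Cd79a, through 0.254 kb of a DMSO peak of 7.06-fold.

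Each DMSO peak had 1 of 4 fates. It vanished when no EPZ peak overlapped it by at least 1 base, was reduced to a core when 1 EPZ peak covered under 50% of it, was kept when 1 EPZ peak covered at least 50%, and was split when it held at least 2 EPZ peaks. The sequences below are the 250 bases before the RefSeq start (build GRCm38.p6, 5′ to 3′ along the gene) of a gene of each fate and of Dot1l. They are shown because the distances given below are measured from such starts. Of these genes, Ptprc, Bcl2 and Irf2 had an EPZ span that began upstream of the printed start and Dot1l one that began downstream of it. Capitals mark CG dinucleotides. Ptprc (chr1:138175306-138175555, minus strand) was kept, Bcl2 (chr1:106714291-106714540, minus strand) was split, Irf2 (chr8:46739495-46739744, plus strand) was reduced to a core and Sipa1l1 (chr12:82169766-82170015, plus strand) vanished. Dot1l itself (chr10:80754953-80755202, plus strand) was split.
Ptprc: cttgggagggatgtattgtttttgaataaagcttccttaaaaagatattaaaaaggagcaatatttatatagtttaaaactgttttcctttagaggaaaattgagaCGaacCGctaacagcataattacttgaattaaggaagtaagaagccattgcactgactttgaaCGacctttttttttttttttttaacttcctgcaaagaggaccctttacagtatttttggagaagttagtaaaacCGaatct
Bcl2: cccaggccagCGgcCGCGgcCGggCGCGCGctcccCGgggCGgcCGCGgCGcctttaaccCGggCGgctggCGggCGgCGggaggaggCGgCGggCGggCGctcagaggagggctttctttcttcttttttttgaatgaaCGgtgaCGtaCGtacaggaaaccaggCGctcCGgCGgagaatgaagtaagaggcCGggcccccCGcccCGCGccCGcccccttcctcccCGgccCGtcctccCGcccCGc
Irf2: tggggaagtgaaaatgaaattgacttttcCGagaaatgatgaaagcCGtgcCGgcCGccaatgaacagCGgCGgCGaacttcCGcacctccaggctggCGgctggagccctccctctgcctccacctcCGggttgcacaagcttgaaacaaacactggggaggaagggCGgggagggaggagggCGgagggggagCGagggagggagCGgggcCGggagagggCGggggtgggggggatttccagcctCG
Sipa1l1: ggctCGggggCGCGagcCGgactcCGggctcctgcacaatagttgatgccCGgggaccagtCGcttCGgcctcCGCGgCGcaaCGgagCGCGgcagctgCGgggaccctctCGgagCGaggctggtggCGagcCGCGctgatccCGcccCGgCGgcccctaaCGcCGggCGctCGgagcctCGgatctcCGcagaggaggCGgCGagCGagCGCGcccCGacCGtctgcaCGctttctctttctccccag
Dot1l: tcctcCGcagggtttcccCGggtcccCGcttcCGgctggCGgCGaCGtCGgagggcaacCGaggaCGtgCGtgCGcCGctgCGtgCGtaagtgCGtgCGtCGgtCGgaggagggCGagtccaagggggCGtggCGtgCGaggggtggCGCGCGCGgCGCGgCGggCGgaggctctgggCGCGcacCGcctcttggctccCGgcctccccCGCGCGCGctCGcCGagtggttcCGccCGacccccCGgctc
The number of CG dinucleotides differed widely between these stretches. Ptprc, the kept gene, had 4 CG dinucleotides in the printed stretch, against 36 for Bcl2, 17 for Irf2, 37 for Sipa1l1 and 44 for Dot1l. Over windows of 300 bases (250 before to 50 after a start), the median number of CG dinucleotides was 13 in 21263 promoters of protein-coding genes. It was 22 at the starts of vanished peaks (n = 2397), 23 for cores (n = 1118), 24 for kept peaks (n = 561) and 26 for split peaks (n = 391). The letters GGGCGG, searched on both strands, stood in 46.2% of all promoters and in 67.7 to 73.9% of those of the 4 fates. The letters CCGGAAG, also searched on both strands, stood in 11.6% of all promoters, 24.0% of those of vanished peaks, 22.7% of cores, 18.9% of kept peaks and 15.4% of split peaks. TATAAA, on both strands, was found in 12.6% of all promoters and in 5.92, 6.62, 10.2 and 4.09% of the vanished, core, kept and split groups. These matches describe letters in a window and are not binding sites.

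Most H3K79me2 domains of vehicle-treated cells had no EPZ peak, and the domains that kept one were the wide and strongly enriched ones. Of the DMSO peaks 9196 (73.1%, 95% interval 72.3 to 73.9) vanished, 1851 (14.7%, 14.1 to 15.4) were reduced to a core, 874 (6.95%, 6.51 to 7.41) were kept and 657 (5.22%, 4.84 to 5.63) were split. Vanished peaks were short, with a median width of 1546 bases, and so held 35.0% of the DMSO bases. Cores had a median DMSO width of 7148 bases, kept peaks 7934 and split peaks 22203. The 657 split peaks held 26.6% of the DMSO bases and 42.7% of the EPZ bases. In all, EPZ peaks covered 18.04 of the 68.4 Mb under DMSO peaks (26.4%).

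Where an EPZ peak remained, it filled a minority of its domain and lay to one side. Over the 3382 overlapped DMSO peaks the median share of bases covered was 35.65% (interquartile range 20.0 to 55.5), and 1067 of them (31.6%) were covered to at least 50%. Under 10% was covered in 310 of them and over 90% in 46. Just below the 50% bound that separates cores from kept peaks lay 167 peaks covered to between 45 and 50%, and just above it 160 covered to between 50 and 55%. The midpoint of the EPZ bases lay a median of 1588 bases from the DMSO midpoint, which is 20.1% of the DMSO width. That offset was 26.4% of the width in cores, 18.7% in split peaks and 10.5% in kept peaks. Cores and kept peaks are defined by covered share, and a larger covered share leaves less room for an offset. Their order therefore follows in part from the definition.

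The EPZ list was almost wholly nested in the DMSO list. Of the EPZ peaks 4360 (98.1%) lay entirely inside a DMSO peak, 7 touched none, and 76 crossed a DMSO edge or joined DMSO peaks. The 76 had a median of 54.5 bases and a sum of 17.5 kb outside DMSO peaks, gaps between joined DMSO peaks included. At least 1 kb lay outside in 6 of them, which were named after their values were seen. Of the 6, 3 lay in T cell receptor loci, at Trgc2 (2.10 kb outside), Tcra (1.47 kb) and Tcrb (1.29 kb). The others were at the noncoding RNA gene Malat1 (1.06 kb), the interferon-induced GTPase gene Iigp1 (1.17 kb) and the predicted gene Gm40892 (2.22 kb). Those at Trgc2, Tcrb, Iigp1 and Gm40892 each joined 2 DMSO peaks.

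**Figure D1:**
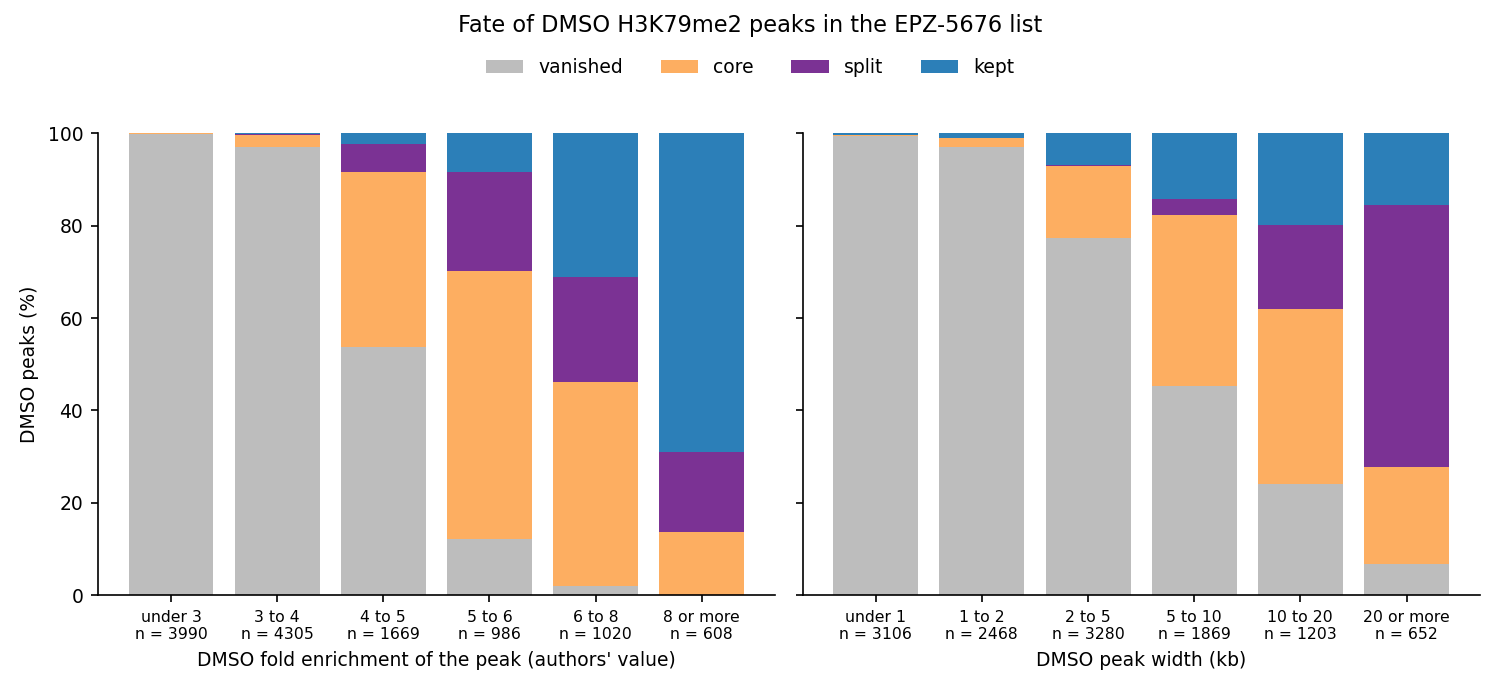
Stacked bars give the percentage of DMSO peaks of each fate by class of DMSO fold enrichment (left) and of DMSO width in kb (right), with the number of peaks under each bar. The vanished share falls from 99.8% below 3-fold to 0% at 8-fold or more, and split peaks make up 56.8% of the peaks of 20 kb or more.

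Fold enrichment, the authors' ratio of a peak over background averaged along the peak, ordered the fates. Each list's values are compared only within that list. Of 3990 DMSO peaks under 3-fold 99.8% vanished, as did 97.1% of 4305 peaks from 3- to 4-fold, 53.7% of 1669 from 4- to 5-fold, 12.2% of 986 from 5- to 6-fold and 1.96% of 1020 from 6- to 8-fold. None of the 608 peaks of at least 8-fold vanished, and 69.1% of those were kept. Shares also differed by width within a class of fold enrichment. Between 4- and 5-fold, 1.96% of 51 peaks under 1 kb were overlapped against 84.4% of 135 peaks of at least 20 kb. In the same class the covered share of the overlapped peaks went the other way, from a median of 23.7% at 2 to 5 kb (n = 176) to 11.1% at 20 kb or more (n = 114). A rule of 1 base gives a wider peak more chances to be overlapped.

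The EPZ remnants lay toward the 5′ end of the domains. For the direction of a gene, the peaks over exactly 1 protein-coding gene of known strand were used, which were 2196 overlapped and 6771 vanished peaks. In 2052 of the 2196 (93.4%, 95% interval 92.3 to 94.4) less of the DMSO peak was lost at its 5′ edge, the edge on the side of the gene's start, than at its 3′ edge. The length outside the EPZ span was a median of 395.5 bases at the 5′ edge (interquartile range 181 to 898) and 3947 bases at the 3′ edge (2054 to 7723). Every fate showed the same side. The share with the smaller loss at the 5′ edge was 94.4% of 1196 cores, 89.0% of 584 kept peaks and 96.9% of 416 split peaks. It was 93.9% of 1112 peaks on the plus strand and 93.0% of 1084 on the minus strand.

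Wider domains had a far longer loss at the 3′ edge in bases, but not as a share of their width. The median loss at the 5′ edge stayed under 1 kb. Among peaks of 2 to 5 kb (n = 496) the medians were 318 bases at the 5′ edge and 1598 at the 3′ edge. Among those of at least 20 kb (n = 421) they were 565 and 12210 bases. As a share of the width the median 3′ loss was 48.1% at 2 to 5 kb, 52.7% at 5 to 10 kb and 52.0% at 10 to 20 kb. At 20 kb or more it was 39.3%. The median 5′ loss was 9.26% of the width at 2 to 5 kb and 1.76% at 20 kb or more. In 126 peaks with no start inside them or within 1 kb before their 5′ edge, the side was less one-sided, with 73.0% (64.4 to 80.5) losing less at the 5′ edge.

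**Figure D2:**
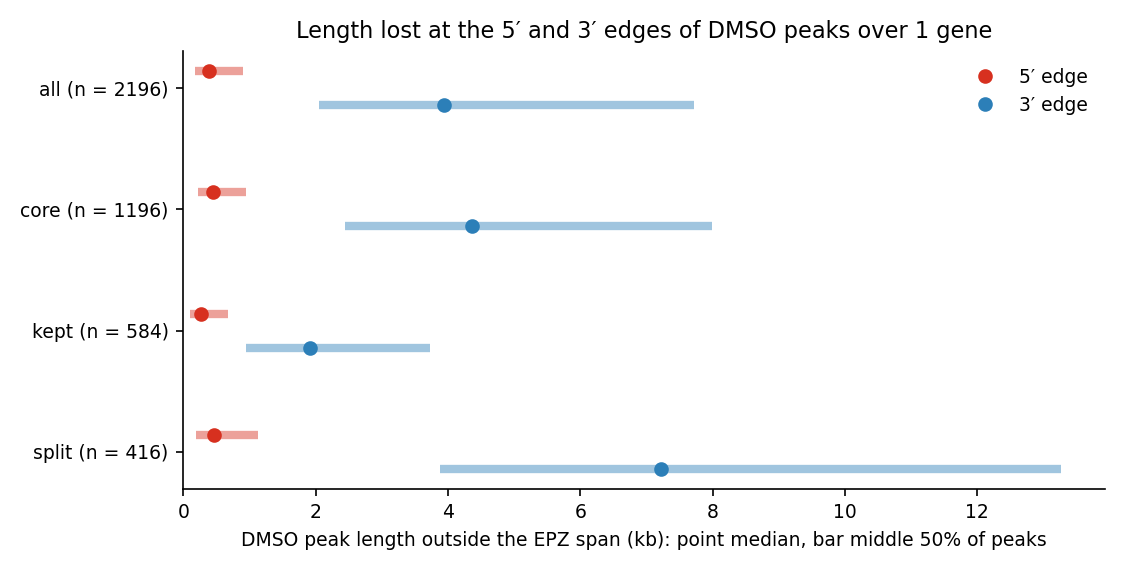
Each point is the median length of a DMSO peak that lies outside the EPZ span at its 5′ edge (red) or 3′ edge (blue), in kb, for peaks over 1 protein-coding gene; bars span the middle 50% of peaks. The 5′ medians lie between 270.5 and 468 bases in the 3 fates and the 3′ medians between 1910 and 7228 bases.

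EPZ remnants began just inside the gene. A start lay in or within 1 kb before the DMSO peak in 94.3% of overlapped peaks and in 35.4% of vanished ones. Measured from that start (n = 2070), the DMSO peak began a median of 5 bases downstream and ended 8646 bases downstream (interquartile range 4736 to 16050). This choice of start lets no DMSO peak begin more than 1 kb downstream. The DMSO beginning and the DMSO coverage near the start therefore follow in part from it. The EPZ span began a median of 371 bases downstream (127 to 678) and ended at 3460 bases (1902 to 7703). In 86.0% of these peaks the EPZ span began downstream of the start, and in 13.4% the start itself lay inside the EPZ span. The start lay inside the span in 23.2% of 561 kept peaks and 6.89% of 1118 cores.

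**Figure D3:**
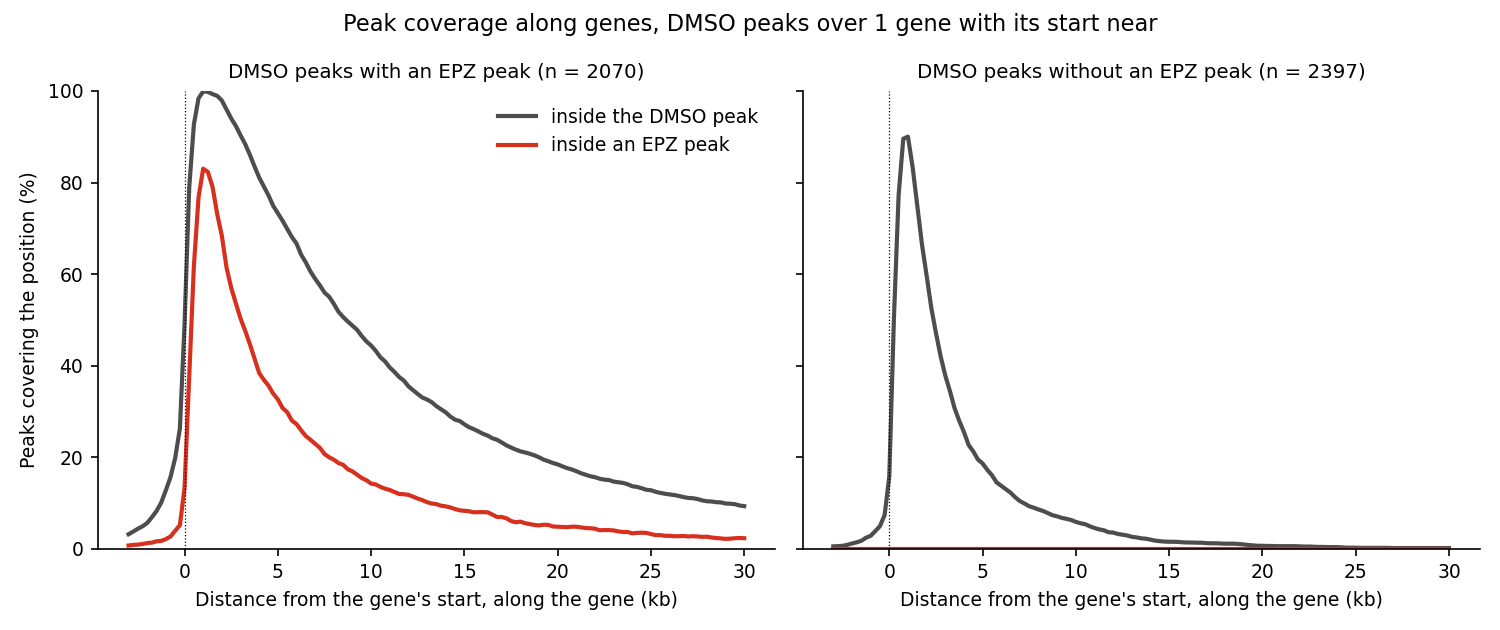
Lines give the percentage of DMSO peaks in which a position lies inside the DMSO peak (grey) or inside an EPZ peak (red), by distance from the gene's start in kb, in 2070 DMSO peaks with an EPZ peak (left) and 2397 without (right). At 2 kb past the start the position lies inside the DMSO peak in 97.9% of the left-hand domains and inside an EPZ peak in 68.4%, and at 20 kb in 18.5% and 4.83%.

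The EPZ share of DMSO coverage was highest near 1 kb past the start and lower deeper in the gene. At 1 kb, 83.1 domains had the position inside an EPZ peak per 100 that had it inside the DMSO peak. At 2 kb past the start 97.9% of the 2070 DMSO peaks covered the position. In 68.4% of the 2070 an EPZ peak covered it, which is 69.8 EPZ per 100 DMSO. That ratio was 47.4 at 4 kb, 32.1 at 10 kb and 26.2 at 20 kb. Directly at the start it was 27.1, where 49.0% of the DMSO peaks reached and 13.3% of them held an EPZ peak that reached. In vanished domains with a start near, DMSO coverage was shorter, with 59.7% of 2397 peaks at 2 kb and 5.88% at 10 kb.

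Many genes carried several DMSO peaks, and an EPZ peak, where there was one, mostly lay in the DMSO peak nearest the start. Of 6149 protein-coding genes of known strand with a DMSO peak 1931 had more than 1. Here a peak over several genes was counted in each of them, and as overlapped wherever in the peak its EPZ bases lay. Their first peak along the gene was overlapped in 51.9% of cases, the second in 6.94% and the third in 3.09%. Where any peak of such a gene was overlapped (1116 genes), the first was among them in 1002 (89.8%). All DMSO peaks of a gene were overlapped in 35 genes. The first peak also had the highest DMSO fold enrichment in 84.4% of these genes. With fold enrichment held between 4 and 5, first peaks were overlapped in 53.6% of 448 cases and later peaks in 35.1% of 148, although first peaks were also wider (median 7759 against 6067 bases). Of 8734 vanished peaks in a protein-coding gene, 3084 (35.3%) lay in a gene that had EPZ bases elsewhere.

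The offset of the remnant differed with the genes under the peak. In peaks over 2 genes transcribed away from each other (440 peaks, 260 of them overlapped), the median offset was 12.2% of the width, against 21.7% in 2720 overlapped peaks over 1 gene and 19.6% in 37 over genes that run toward each other. It was 11.4% in 42 overlapped peaks over 2 genes of the same direction, 9.87% in 59 over at least 3 genes and 12.5% in 104 over no protein-coding gene. Vanished peaks made up 40.9% (36.3 to 45.7) of the head-to-head peaks, 75.4% (74.6 to 76.2) of 11077 peaks over 1 gene, 81.6% (78.2 to 84.7) of 566 peaks over no protein-coding gene and 14.5% (7.17 to 25.04) of 69 peaks over at least 3. Groups with fewer vanished peaks had a higher median DMSO fold enrichment, which in this order was 4.71, 3.30, 3.19 and 6.39.

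The 6 widest kept domains were 54.4 to 78.99 kb wide. At the T cell receptor alpha locus (chr14:54148056-54227042), which in this stretch overlaps no gene annotated as protein-coding, 1 EPZ peak covered 77.0 of 78.99 kb (97.5%). At Ptprc, which encodes the phosphatase CD45 (chr1:138109693-138180173), 63.0 of 70.5 kb was covered, with 1.56 kb lost at the 5′ edge and 5.90 kb at the 3′ edge. The other 4 DMSO peaks of Ptprc, all farther into the gene, had no EPZ peak. At Prkcq, the gene of protein kinase C theta in T cell receptor signalling (chr2:11168073-11233127), 54.5 of 65.1 kb was covered, with 2.37 kb lost at the 5′ edge and 8.18 kb at the 3′ edge. The ETS family factor genes Fli1 (chr9:32470435-32543935) and Elf1 (chr14:79510923-79568718) were covered over 57.8 of 73.5 kb and 45.9 of 57.8 kb. Rsbn1l (chr5:20908180-20962545), the last of the 6 widest, was covered over 28.8 of 54.4 kb (52.9%), with 5.31 kb lost at the 5′ edge and 20.3 kb at the 3′ edge.

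In the widest cores under 30% of a long domain remained. At Irf2, an interferon regulatory factor gene (chr8:46736970-46794200), the DMSO domain of 57.2 kb kept 16.9 kb, with 0.721 kb lost at the 5′ edge and 39.6 kb at the 3′ edge. At Lrrfip1 (chr1:91052371-91101697) 14.3 of 49.3 kb remained, and 1.14 and 33.9 kb were lost at the 2 edges. At Fbxo11, an F-box gene of a ubiquitin ligase (chr17:88016309-88065346), 9.68 of 49.04 kb remained, and 0% at a −log10 q minimum of 5. Sh3kbp1, an adaptor gene (chrX:159707987-159759193), kept 9.76 of 51.2 kb and Bicra, a chromatin remodeller subunit gene (chr7:16002772-16052009), kept 10.9 of 49.2 kb. Foxp1, a forkhead factor gene of naive T cell quiescence, had its widest domain around an internal RefSeq start (chr6:99204096-99274001), and 14.5 of 69.9 kb was left there. With peaks under 3000 bases apart joined, the covered share went from 20.8 to 13.2% at Foxp1 and from 19.1 to 11.4% at Sh3kbp1. Foxp1 had 35 DMSO peaks over 234.5 kb in all, of which 22.8 kb (9.72%) lay in EPZ peaks.

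Among cores of at least 10 kb, the 4 with the largest offsets held their remnant near the gene's start. Such an offset is possible only where little of a domain is covered. Their small covered shares, all under 5%, therefore follow from this choice. At Notch2, a receptor of Notch signalling (chr3:98013992-98046615), 0.319 of 32.6 kb was covered, from 518 to 836 bases past the start, and the offset was 49.3% of the width. At Tle4, a corepressor gene (chr19:14571995-14597173), 0.419 of 25.2 kb was covered. At Sh3bp5 (chr14:31406052-31436022) 1.45 of 30.0 kb and at Septin9, a cytoskeletal gene (chr11:117266113-117290691), 0.459 of 24.6 kb remained. All 4 remnants ended within 1627 bases of the start. The remnants of Notch2, Tle4 and Septin9 were lost once EPZ peaks alone had to reach a −log10 q of 5. Septin9 as a whole kept 30.3 of 89.9 kb (33.7%), most of it in its next DMSO peak, and with peaks under 3000 bases apart joined the covered share of the joined domain was 37.3%.

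**Figure D4:**
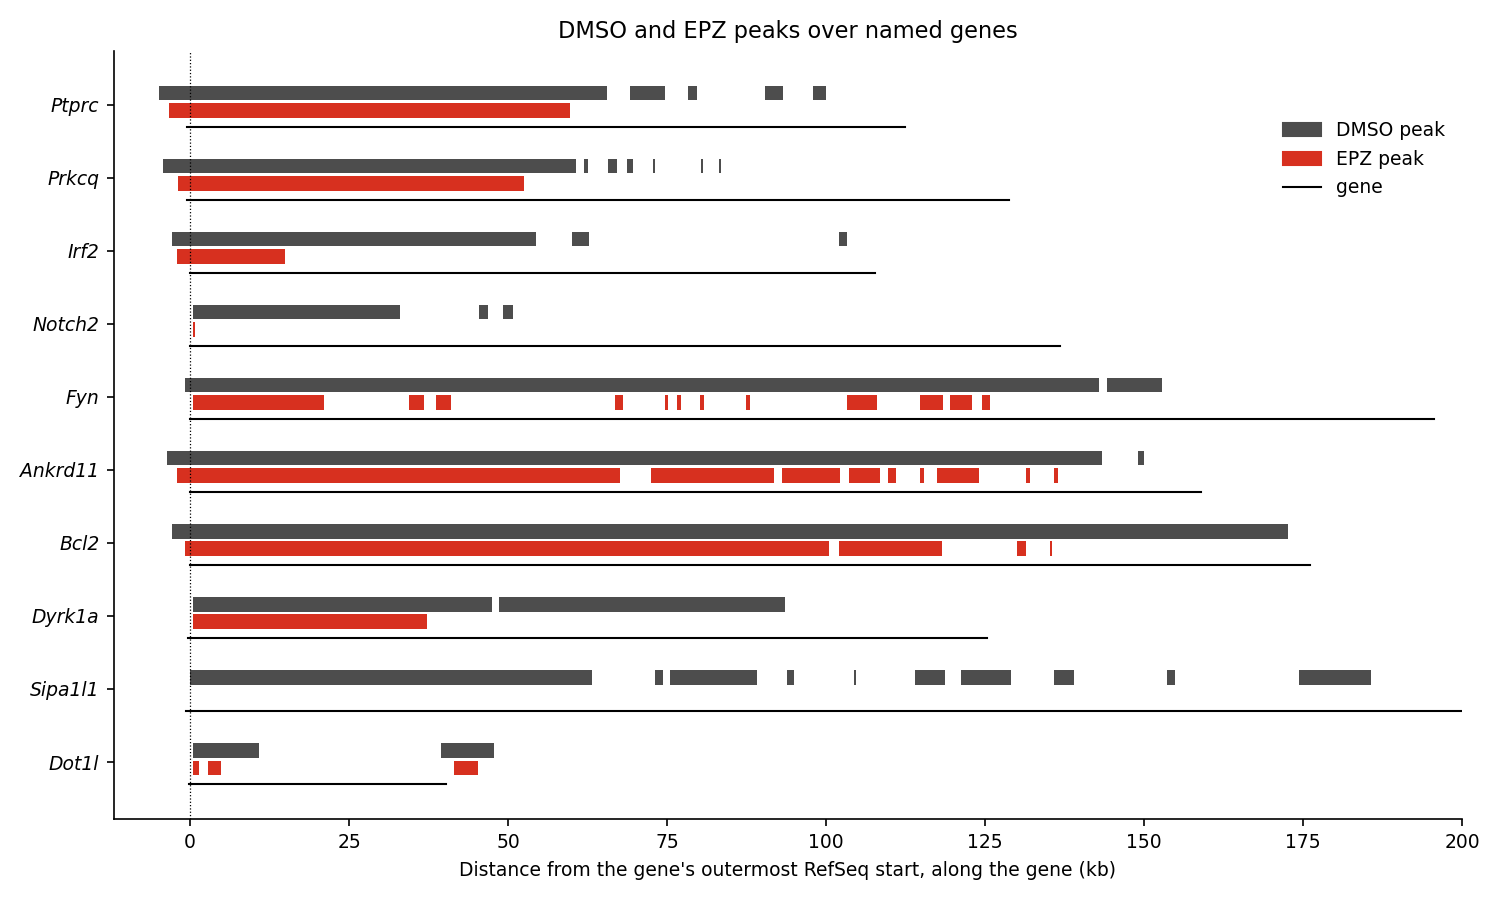
Bars give DMSO peaks (grey) and the EPZ parts inside them (red) over 10 genes, as distance in kb from the outermost RefSeq start, with the gene as a black line cut at the plot's right edge. Red bars begin near 0 in each gene that has one, Fyn shows 12 separate EPZ peaks, and the second Dyrk1a domain and the 10 Sipa1l1 peaks have none.

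Split domains broke into 1 long piece at the 5′ end and short pieces behind it. Of the 657 split domains 438 held 2 EPZ peaks, 123 held 3 and 96 held at least 4. Since neighbouring EPZ peaks were at least 1214 bases apart throughout the list, shorter breaks could not be seen. The 1058 gaps had a median of 2075 bases (interquartile range 1490 to 3718) and reached 46557 bases. In the 416 split peaks over 1 gene of known strand, the first piece was the longest in 339 (81.5%) and had the highest EPZ fold enrichment in 372 (89.4%). First pieces had a median of 5199 bases and 4.36-fold, second pieces 1326 bases and 3.09-fold, on the scale of the EPZ list. At a −log10 q minimum of 5 in both lists, 1.51% of DMSO peaks were split.

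Fyn, the gene of a Src family kinase of T cell receptor signalling (chr10:39369011-39512669), broke into 12 EPZ peaks, the most of any domain. The first ran from 0.522 to 21.1 kb past the start (20.6 kb), and the others were 0.444 to 4.72 kb long and reached to 125.7 kb. Together they covered 41.9 of 143.7 kb (29.1%). Ankrd11, a chromatin regulator gene (chr8:122898920-123045919), kept 112.5 of 147.0 kb in 9 pieces, the first of them 69.7 kb long. The kinase gene Stk24 (chr14:121299698-121378949) also held 9 pieces, over 34.2 of 79.3 kb. Pitpnc1, a lipid transfer gene (chr11:107368223-107472016), held 8 over 27.6 of 103.8 kb. Jak1, the cytokine receptor kinase gene (chr4:101188695-101265682), held 8 over 41.4 of 77.0 kb, and Uck2, a pyrimidine salvage kinase gene (chr1:167236691-167284544), 8 over 24.4 of 47.9 kb. Bcl2, the anti-apoptotic gene with the widest DMSO domain (175.5 kb), kept 119.3 kb in 4 pieces, of 101.3, 16.2, 1.50 and 0.361 kb in the order of the gene. At a −log10 q minimum of 5 the covered share was lower in all 6 domains with the most pieces. Such a filter on EPZ peaks can lower this share or leave it, but cannot raise it. It went from 29.1 to 14.3% at Fyn, from 76.5 to 47.4% at Ankrd11, from 43.1 to 28.0% at Stk24, from 26.6 to 14.8% at Pitpnc1, from 53.7 to 36.5% at Jak1 and from 51.0 to 16.6% at Uck2.

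The 6 widest vanished domains were 35.3 to 63.3 kb wide. Sipa1l1, a Rap GTPase regulator gene (chr12:82169954-82233243), lost a domain of 63.3 kb at 4.22-fold that began at its start, and none of its 10 DMSO peaks was overlapped. Tcf12, an E-protein factor gene (chr9:72069358-72111310), lost 42.0 kb at 4.22-fold, and all 9 of its DMSO peaks vanished. In Dyrk1a, a kinase gene (chr16:94618765-94663688), the vanished domain of 44.9 kb was the downstream one. The upstream domain, from 0.408 to 47.4 kb past the start, kept 36.7 kb from 0.516 to 37.2 kb. The vanished domains of Ppm1h, a phosphatase gene (chr10:122720875-122765533, 44.7 kb), and Prkch, the gene of protein kinase C eta (chr12:73657367-73692628, 35.3 kb), also lay in genes with EPZ bases elsewhere, over 6.24 and 5.18 kb. The remaining one (chr6:31180947-31220249, 39.3 kb) overlapped the noncoding gene Lncpint. With peaks under 3000 bases apart joined, the domains of Dyrk1a, Ppm1h and Prkch no longer vanished (39.4, 6.05 and 4.26% covered), and those of Sipa1l1, Tcf12 and Lncpint stayed at 0%.

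Dot1l, the gene of the inhibited enzyme, kept part of its own mark. Its 10.4 kb domain at 5.09-fold (chr10:80755625-80766022) began 422 bases past the start and held 2 EPZ peaks, from 0.457 to 1.45 kb and from 2.86 to 4.82 kb past it, which covered 28.4%. Only the first of them reached a −log10 q of 5 (9.54% covered). A second DMSO domain reached into the end of Dot1l from its neighbours, among them Sf3a2 (chr10:80794618-80803030), and its EPZ peak lay past the end of Dot1l.

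Read per gene, 7563 protein-coding genes had a DMSO base. Of these 4077 (53.9%, 52.8 to 55.04) had no EPZ base, 2396 (31.7%, 30.6 to 32.7) kept under 50% of their DMSO bases and 1090 (14.4%, 13.6 to 15.2) kept at least 50%. The median covered share over all marked genes was 0%. It was higher with a higher DMSO fold enrichment in the gene, from 0% at 4- to 5-fold (n = 1671) to 22.2% at 5- to 6-fold (n = 1092), 42.2% at 6- to 8-fold (n = 1191) and 65.4% at 8-fold or more (n = 696). In these 4 classes 2.095, 9.80, 36.1 and 73.7% of genes kept at least 50%. Genes without an EPZ base made up 99.7% of 678 under 3-fold and 95.5% of 2235 from 3- to 4-fold. At a −log10 q minimum of 5 for EPZ peaks alone the share of all marked genes without an EPZ base was 77.8%. With it the share was 11.8% of T cell receptor and CD8 identity genes (0% without it), 37.5% of cytotoxic, 33.3% of effector transcription factor, 26.7% of homing, 30.8% of antigen presentation, 25% of cytokine signalling and 38.9% of glycolysis and Myc genes. Counts for gene lists below are read beside these values and beside 53.9% and 14.4%. Members of a list are not independent where they share a DMSO peak, as Cd3d and Cd3g or Psmb8, Psmb9 and Tap1 do.

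Among genes of CD8 T cell identity and effector functions, the marked ones had high DMSO fold enrichment. They kept EPZ peaks over much of the DMSO bases inside the gene. Over all marked genes the median covered share was 42.2% at 6- to 8-fold and 65.4% at 8-fold or more. By median fold enrichment, the identity list lay below the value of its class. The cytotoxic and effector transcription factor lists lay above theirs. The cytotoxic value rests on 8 marked genes, some of them marked through a peak that overlaps another gene more. With each peak given to 1 gene, 5 cytotoxic genes stayed marked, of which 20% had no EPZ base. All 17 T cell receptor and CD8 identity genes kept EPZ bases, 11 of them at least 50%, and their median covered share was 57.9% at a median DMSO fold enrichment of 8.39. Cd28, the costimulatory receptor gene, was highest, with 15.6 of 17.4 kb (89.5%), and Cd5, a negative regulator of receptor signalling, lowest, with 0.649 of 7.04 kb (9.22%). Of 15 cytotoxic effector genes 8 were marked, and 6 of these kept at least 50% (median 81.3%, DMSO fold enrichment 7.63). Gzma, Gzmk, Prf1, Ifng, Ccl5, Klrg1 and Cx3cr1 had no DMSO peak, so nothing can be said of their retention. Tnf, the gene of the cytokine TNF, was covered over all of its 2.64 kb, whereas Lamp1, a lysosomal membrane gene, had 0 of 5.90 kb. Gzmm, a granzyme gene, also had none, but was marked through only 0.661 kb of a peak. Of 11 effector transcription factor genes 9 were marked, and Prdm1 and Zeb2 had no DMSO peak. Of the 9 marked genes 7 kept at least 50% (median 74.2%, DMSO fold enrichment 8.22). Id2 was covered over all of the 2.29 kb inside the gene, and its whole DMSO peak of 5.276 kb to 76.25%. Batf, an AP-1 factor gene, was covered over 0 of 10.7 kb.

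Covered shares of naive and memory genes spanned the whole scale. All 18 were marked, 10 kept at least 50% and 1, Id3, an inhibitor of E proteins, kept none of 1.56 kb (median 57.3%). Klf2, a factor of naive T cell trafficking, was covered over all of its 2.59 kb. Other members are named here after their values were seen. Bcl11b, a factor of T lineage commitment, kept 93.3% of 90.3 kb, Ets1 87.2% of 59.2 kb, and Tcf7, the gene of TCF-1, 70.5% of 21.7 kb. Lef1, a relative of Tcf7, kept 4.32% of 66.2 kb, Zeb1 4.59% of 47.6 kb and Bach2, a repressor of effector differentiation, 5.04% of 73.0 kb. Myb kept 7.37% of 5.29 kb. At a −log10 q minimum of 5 for EPZ peaks alone, 33.3% of this list had no EPZ base.

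Marked homing and antigen presentation genes had median covered shares above 60%. Of 15 marked homing and adhesion genes 9 kept at least 50% (median 64.8%, DMSO fold enrichment 7.099), and the integrin gene Itga4 was covered over 0 of 0.785 kb. Of 19 antigen presentation and interferon genes 13 were marked, and 9 of these kept at least 50% (median 79.6%, DMSO fold enrichment 9.75). The interferon genes Irf7, Isg15, Ifit1, Ifit3 and Oas1a had no DMSO peak, and Mx1 was not among the genes used. The value of 9.75 was that of Tap1, Tap2, Psmb8 and Psmb9. With each peak given to 1 gene, 10 genes of this list stayed marked, of which 20% had no EPZ base. Psmb8, an immunoproteasome subunit gene, kept 97.5% of 3.26 kb and Stat2, a factor of interferon signalling, 0 of 2.48 kb.

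Cytokine signalling genes also ranged from 0 to 100%. Of 24 marked cytokine receptor and JAK-STAT genes 9 kept at least 50% and 3 kept none (median 46.7%, DMSO fold enrichment 7.24). The feedback inhibitor genes Cish and Socs1 were covered over all of their 6.13 and 1.73 kb. The 3 without EPZ bases were Il6st, the shared receptor chain of the interleukin 6 family, with 0 of 9.10 kb, the kinase gene Jak2 with 0 of 11.3 kb, and Stat5a, marked over 0.357 kb. Of 15 inhibitory receptor and exhaustion genes only 6 were marked, of which Ctla4 kept 62.1% of 6.69 kb and Btla 15.5% of 11.1 kb. Cd160, Entpd1, Nr4a2 and Tox kept none of the 0.684, 0.561, 2.90 and 0.733 kb that were marked, at DMSO fold enrichments of 2.74 to 3.35. Over all marked genes 99.7% under 3-fold and 95.5% from 3- to 4-fold had no EPZ base. At a −log10 q minimum of 5 for EPZ peaks alone, all 6 marked genes of the inhibitory list had no EPZ base (100%).

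Genes of growth had median covered shares of 62.8% for ribosomal proteins, 29.5% for the cell cycle and 23.3% for respiration. All 30 cytosolic ribosomal protein genes kept EPZ bases and 22 kept at least 50% (median DMSO fold enrichment 7.5), from Rps20 at 28.1% of 2.02 kb to Rpl8 at 97.0% of 2.25 kb. Of 20 marked mitochondrial respiration genes 2 kept at least 50% and 7 kept none (median DMSO fold enrichment 5.41). Cox5a, a cytochrome oxidase subunit gene, was highest at 64.2% of 10.7 kb. Among the 7 were Ndufa1, Ndufb8, Sdhc, Uqcrb, Cox6c and Atp5e, subunit genes of the respiratory chain or ATP synthase, with 0.448 to 5.29 kb marked in each. Of 26 marked cell cycle genes 25 kept EPZ bases but 5 kept at least 50% (median DMSO fold enrichment 6.17). Pcna, the replication clamp gene, kept 94.0% of 3.90 kb and Cdk2 none of 1.68 kb. At a −log10 q minimum of 5 in both lists, 32.0% of the cell cycle and 17.2% of the ribosomal protein genes had no EPZ base. For respiration genes that share went from 35% to 56.3%, and to 65% with the minimum for EPZ peaks alone.

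Of 18 glycolysis and Myc genes 9 kept at least 50% (median 52.8%, DMSO fold enrichment 6.15). Myc was covered over all of its 5.02 kb. The glucose transporter gene Slc2a3 (0.754 kb), the phosphofructokinase gene Pfkl (2.76 kb) and the lactate transporter gene Slc16a3 (3.43 kb) had none. Of 20 splicing regulator genes 11 kept at least 50% (median 54.9%, DMSO fold enrichment 7.53). Mbnl1 kept 130.6 of 145.2 kb, while its relative Mbnl2 kept none of 14.1 kb in 7 DMSO peaks, and Hnrnpll, a splicing factor of memory T cells, none of 5.70 kb.

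Genes of DOT1L's own partners had a median covered share near that of all marked genes of like fold enrichment. Of 16 marked genes of DOT1L partners and the super elongation complex 0 kept at least 50% and 7 kept none. At least 50% was kept by 14.4% of all marked genes and by 9.80% of those of 5- to 6-fold. The median of the list was 21.2% at a DMSO fold enrichment of 5.29, beside 22.2% over all marked genes of 5- to 6-fold. The share without an EPZ base was 43.75%, beside 53.9% over all marked genes but 18.8% over those of 5- to 6-fold. It was 22.2% of the 9 genes still marked at a −log10 q minimum of 5 in both lists. With that minimum for EPZ peaks alone it was 56.25% of all 16. Ccnt1, the cyclin of the elongation kinase P-TEFb, was highest at 42.4% of 13.0 kb. The 7 were Mllt1, Mllt3, Mllt10, Aff1, Aff3, Aff4 and Men1, with 0.325 to 41.4 kb marked at 2.66- to 3.76-fold. Over all marked genes 99.7% under 3-fold and 95.5% from 3- to 4-fold had no EPZ base. Mllt10, which encodes the DOT1L-binding protein AF10, had 9 DMSO peaks over 41.4 kb and none of them was overlapped.

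**Figure D5:**
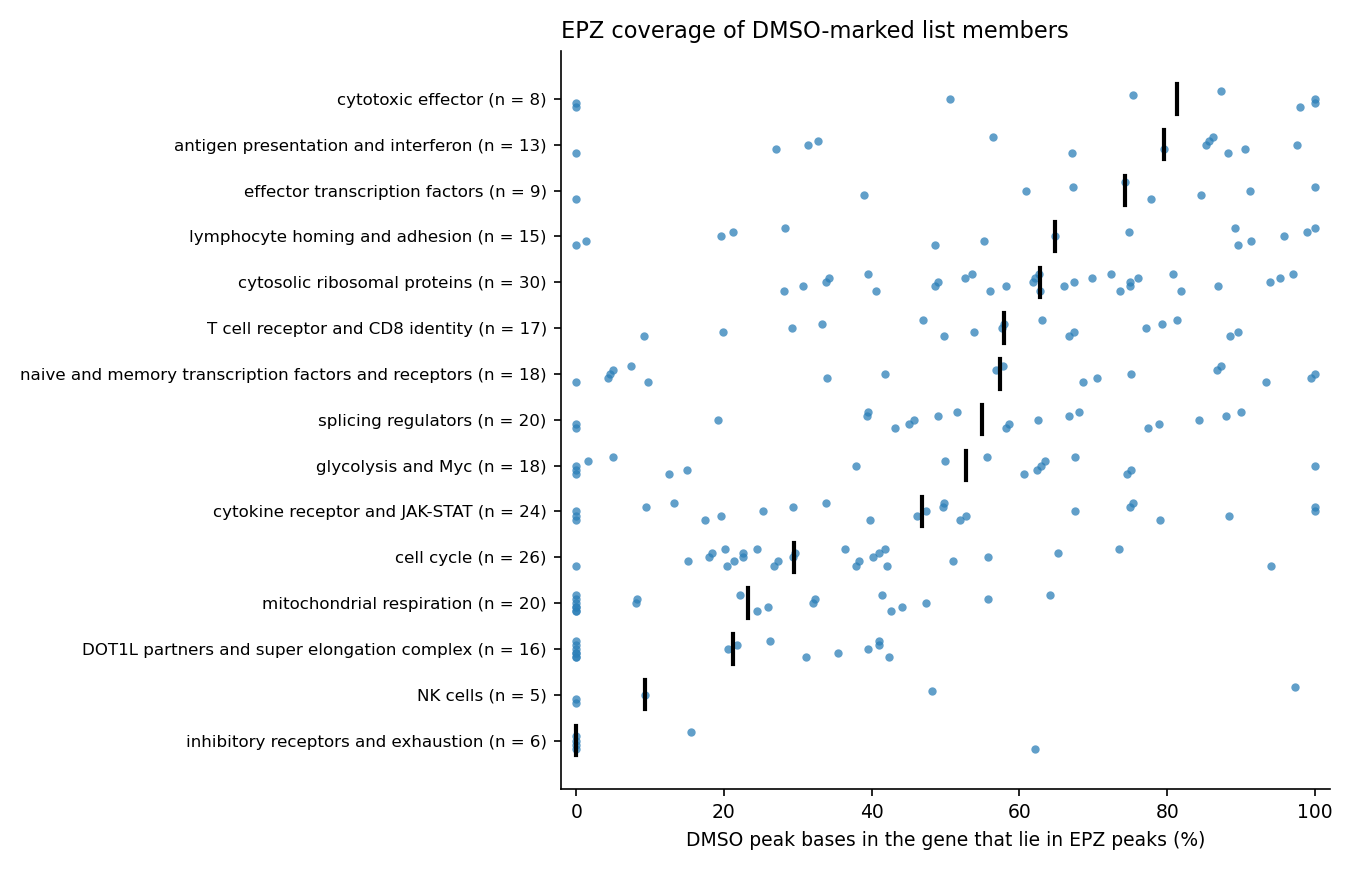
Each point is a DMSO-marked gene of a list, placed by the percentage of its DMSO peak bases that lie in EPZ peaks, and black lines are list medians; lists with at least 5 marked genes are shown with their number. Medians run from 0% for inhibitory receptor genes to 81.3% for cytotoxic effector genes, and no DOT1L partner gene passes 42.4%.

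Of 8295 DMSO peaks under 4-fold, 15 were covered to at least 50% (50.7 to 100%), and these were named after their values were seen. The widest was at Klrk1, the gene of the NK receptor NKG2D that activated CD8 T cells also carry (chr6:129607092-129625043). It was 17.95 kb wide at 3.79-fold, 78.4% of it was covered, and within the gene 97.2% of 13.6 kb. Others were at Ifitm2, an interferon-induced membrane protein gene (4.05 kb, 82.4%), Samd3 (1.69 kb, 100%), Gvin1 (1.77 kb, 99.3%) and Il7r, the interleukin 7 receptor gene (0.6 kb, 100%). The other DMSO peak of Il7r vanished, so that 34.0% of its 1.77 kb was covered. The T cell receptor gamma locus had 2 of them, at Trgc2 and Tcrg, both covered over 100%. Of the other marked NK cell genes Klrd1 kept 48.2% and Cd226 9.31%, while Klre1 and Tyrobp kept none. Of the CD4 T cell genes Gata3 kept 49.7% and Bcl6 47.8% of the DMSO bases inside the gene, and the whole Bcl6 peak was covered to 24.5%. Ikzf2 and Cxcr5 kept none, and Cd79a kept none.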

How the data were processed

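H3K79me2 ChIP-seq of DMSO-treated and EPZ-5676-treated CD8 T cells was deposited by the authors as 1 broad peak list per treatment. Per the submitters' processing notes, the tools were MACS2 2.2.7.1, BWA 0.7.17-r1188 and Picard, and the builds were mm10 or GRCm38 for mouse and sacCer3 for yeast. For calling settings, inputs, yeast reads and replicate pooling, the method is not given in the sources used here. Fold enrichment, as deposited, is the authors' ratio of peak signal over background. The −log10 q, also as deposited by the authors, served only as a filter. Depth is unknown, and weak regions go uncalled where it is low.

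Overlaps, covered shares and offsets were computed from the peak positions with Python 3.11.15, numpy 2.4.6 and pandas 2.3.3, and intervals with scipy 1.17.1. The overlap code was tested on simulated peaks. Genes were the 21900 protein-coding genes of a RefSeq table on GRCm38, and strand and starts came from RefSeq promoters, which matched 17492 of them. Exon structure was not analysed here. The share of bases uses the whole DMSO peak, or for a gene its DMSO bases.

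The comparison and the 19 gene lists (335 genes) were chosen with earlier results of these data known. Genes were named by a rule. It took the 6 widest kept, core and vanished peaks, the 6 with the most EPZ peaks, the 4 cores of at least 10 kb with the largest offset, and Dot1l. From each list it took the marked members with the highest and lowest covered share and those without an EPZ base, and some of these are not reported here. No test across replicates could be made. Alternatives changed the overlap minimum, the −log10 q minimum, the joining of peaks, the width minimum, the core bound and the assignment to genes.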

Additional observations from a re-analysis of the deposited data

How the results depend on the processing

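No paired analysis was possible because each treatment has 1 deposited list in which the replicates are not separated, and for the same reason no replicate was left out. Each choice was changed alone. Joining peaks under 3000 bases apart and requiring a −log10 q of at least 5 of EPZ peaks alone were chosen after seeing the data. With a −log10 q of at least 5 in both lists, 53.3% of DMSO peaks vanished, 1.51% were split, 23.1% were cores and 22.0% were kept. The median covered share was then 49.2%, the median offset 17.7% of the width and the share of marked genes without an EPZ base 55.9%. With that minimum for EPZ peaks alone the same 7 values were 87.3, 0.406, 6.31, 5.96, 49.0, 17.7 and 77.8%. For DMSO peaks at least 1000 bases wide, 64.5% vanished, 6.94% were split, 19.5% were cores, 9.10% were kept and 49.3% of genes had no EPZ base. With peaks under 3000 bases apart joined, 63.1% vanished, 3.63% were split, 23.5% were cores and 9.76% were kept, with a covered share of 34.0% and an offset of 21.5%. A bound of 25% in place of 50% gave 7.39% cores and 14.3% kept, and a bound of 75% gave 19.9% and 1.79%.

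The share of peaks that lost less at the 5′ edge was 92.4 to 93.8% over the 6 alternatives that alter the peaks it is counted on. No peaks of a list lay under 1000 bases apart, so joining such peaks tested nothing. Asking for 200 bases of overlap moved no share or median of all peaks or genes beyond its interval. Depth limits every absence: a domain without an EPZ peak is one where none was called.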
